A study of Mus musculus with 12 samples.

Results

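Fgfbp3, Fgfr1, Fgfr2, Fgfr3, Fgfrl1, Fgf1, Fgf2, Fgf9 and Fgf18 are 9 genes of fibroblast growth factor (FGF) signalling: an extracellular FGF-binding protein, 4 receptor genes and 4 secreted ligands. They were picked by symbol from the 55357 genes counted in each of 12 libraries of mouse cortex with hippocampal formation, of which 43186 genes had a count in at least 1 library. All 9 passed the filter on low counts in every comparison. The rows of Fgfbp3 and Fgfr3 had drawn attention in earlier fits of knockout against control on these same libraries. The genotype values of the 9 genes are therefore given as a description. Tests are given for the differences between regions and for the interaction of genotype and region. They reuse the same libraries, and the interaction is the difference of the rostral and caudal genotype contrasts. These tests are thus not independent of how the genes were chosen.

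Secreted FGFs bind heparan sulfate and receptor tyrosine kinases on neighbouring cells, and the activated receptors recruit the adaptor FRS2 and signal through RAS, MAP kinases and phospholipase C gamma. Secreted FGF-binding proteins such as FGFBP3 carry ligands out of the heparan sulfate matrix. In postnatal brain, Fgfr3 is known as a receptor gene of astrocytes and their precursors, Fgfr1 as a broadly used receptor gene with strong expression in hippocampus, and Fgfr2 as one of astrocytes and the oligodendrocyte lineage. FGFRL1 binds FGFs and lacks the tyrosine kinase domain of the other receptors.

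The mice were taken at postnatal day 5. The cKO group held animals T3, T6 and T80, with both Egfr alleles floxed and a Nestin-driven recombinase (Nestin-EgfrF/F). The control group held T4, T8 and T70, given as EgfrF/+ in the protocol and as WT in the genotype label. The Nestin promoter is active in neural progenitors, so recombination reaches neurons and macroglia but not microglia. Each of the 6 animals gave a rostral and a caudal piece, which makes 4 groups of 3 libraries. The labels do not say whether controls carry the recombinase, so loss of Egfr and presence of the recombinase cannot be told apart, and they do not give the deleted exons.

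Total counts per library ran from 43810458 to 87170315, and the 9 genes had between 128 counts (Fgf18, control rostral T4) and 6652 counts (Fgfr1, cKO caudal T6). Egfr, the deleted gene, stood at 10.3, 6.37 and 12.6 CPM (counts scaled to library size) in cKO rostral cortex and at 5.81, 14.6 and 9.49 CPM in cKO caudal cortex (T3, T6, T80). In control it stood at 41.8, 39.7 and 48.9 CPM in rostral and at 45.4, 39.1 and 40.2 CPM in caudal cortex (T4, T8, T70), so the 2 genotypes did not overlap. Cortex, neuron, astrocyte and oligodendrocyte precursor markers were all counted in every library. In the rostral cKO piece of T6, 8.18% of counts came from mitochondrial genes, against 1.85% to 3.98% elsewhere. A region score over 561 genes that separated control pieces was scaled so that control rostral cortex averages 0 and control caudal cortex 1. On it the cKO caudal pieces of T3, T6 and T80 lay at 0.576, 1.13 and 0.823, and the cKO rostral pieces at 0.87, -0.0622 and 0.631. The library labelled rostral of T3 was thus more caudal on this score than the library labelled caudal of the same animal, and values are given below with and without T3 and T6 where they rest on them.

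Promoter windows from RefSeq on GRCm38.p6, from 250 bases before to 50 bases after an annotated start, were matched for 7 of the 9 genes, in 8 windows, 2 of them for Fgfr3. No window was matched for Fgfr1 or Fgf1. The windows of Fgfbp3 and Fgfr3, the binding protein and receptor with lower cKO levels in both regions, are printed beside that of Fgfr2, a receptor whose mean level was near that of control. All run 5' to 3' on the gene's strand, and capitals mark E-boxes (CANNTG) and GC boxes (GGGCGG, either strand). The coordinates are chr19:36919550-36919849 on the minus strand for Fgfbp3, chr5:33721474-33721773 on the plus strand for Fgfr3 and chr7:130266759-130267058 on the minus strand for Fgfr2.
Fgfbp3: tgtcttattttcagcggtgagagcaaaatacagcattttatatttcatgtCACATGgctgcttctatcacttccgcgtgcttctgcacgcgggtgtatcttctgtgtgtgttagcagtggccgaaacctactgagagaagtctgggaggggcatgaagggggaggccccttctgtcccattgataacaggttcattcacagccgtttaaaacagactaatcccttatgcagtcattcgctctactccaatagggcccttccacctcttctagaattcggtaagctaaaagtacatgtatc
Fgfr3: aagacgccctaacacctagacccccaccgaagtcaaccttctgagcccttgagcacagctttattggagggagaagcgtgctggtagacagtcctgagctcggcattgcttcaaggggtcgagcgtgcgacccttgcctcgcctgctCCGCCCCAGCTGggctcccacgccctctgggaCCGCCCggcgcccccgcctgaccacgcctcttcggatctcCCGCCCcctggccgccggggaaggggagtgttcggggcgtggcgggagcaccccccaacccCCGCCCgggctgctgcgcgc
Fgfr2: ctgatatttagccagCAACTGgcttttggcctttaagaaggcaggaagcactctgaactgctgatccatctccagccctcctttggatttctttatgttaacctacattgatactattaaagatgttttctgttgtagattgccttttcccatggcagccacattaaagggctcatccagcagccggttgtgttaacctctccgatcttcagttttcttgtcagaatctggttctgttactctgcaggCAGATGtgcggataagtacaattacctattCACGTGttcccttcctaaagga

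The printed Fgfr3 window held 69.7% G and C, 26 CG dinucleotides, 4 GC boxes and 1 E-box, with one GC box directly beside the E-box. The other Fgfr3 window held 73.0% G and C, 30 CG dinucleotides, 2 GC boxes and no E-box. The Fgfbp3 window held 46.7% G and C, 9 CG dinucleotides, 1 E-box and no GC box, and the Fgfr2 window 43.7% G and C, 4 CG dinucleotides, 3 E-boxes and no GC box. The median over all 32851 windows was 52.7% G and C with 7 CG dinucleotides. An E-box was found in 72.3% of those windows and a GC box in 35.7%. The letters TTCNNNGAA (STAT, in 8.3% of all windows) and TGACTCA (AP-1, 5.2%) were in none of the 8 windows, and CCGGAAG (ETS, 8.86%) was in that of Fgfrl1 alone, each searched on both strands. The Fgfrl1 window, of a gene lower in rostral cKO cortex, held 73.7% G and C and 4 GC boxes, closer to Fgfr3 than to Fgfbp3.

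Fgfbp3, on chromosome 19 (GRCm39, 36894950 to 36897015, minus strand, ENSMUSG00000047632.12), was lower in cKO cortex in both regions. In rostral cortex it stood at 11.5, 9.48 and 8.13 CPM in cKO animals (T3, T6, T80), against 26.6, 23.8 and 26.1 CPM in control animals (T4, T8, T70). In caudal cortex it stood at 10.7, 10.5 and 10.2 CPM in cKO, against 17.6, 17.1 and 19.5 CPM in control. The 2 genotypes did not overlap in either region, and the highest of the 6 cKO values lay below the lowest of the 6 control values. The cKO mean was 38.1% of the control mean in rostral and 58.0% in caudal cortex, with log2 differences of -1.38 (SE 0.15) and -0.78 (SE 0.09). In these pieces of tissue, fewer cells of a type and less RNA per cell cannot be told apart.

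Fgfr3, the receptor gene of astrocytes and their precursors (chromosome 5, 33879018 to 33894412, plus strand, ENSMUSG00000054252.19), was also lower in cKO cortex. In rostral cortex it stood at 33.4, 6.38 and 24.7 CPM in cKO, against 52.7, 48.4 and 46.6 CPM in control. In caudal cortex it stood at 24.9, 32.02 and 29.6 CPM in cKO, against 56.9, 50.7 and 46.4 CPM in control. The genotypes did not overlap in either region, and the rostral T6 library was far below the other cKO libraries. The log2 difference was -1.18 (SE 0.52) in rostral and -0.83 (SE 0.11) in caudal cortex, and the rostral value was -0.75 without T6. Of the exon bases of Fgfr3, 13.9% are shared with G630022F23Rik on the opposite strand, which had 1092 counts in all libraries together against 30172 for Fgfr3.

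Fgfr1 (chromosome 8, 26003670 to 26065734, plus strand, ENSMUSG00000031565.19) varied widely among the cKO libraries. In rostral cortex it stood at 62.4, 21.5 and 37.4 CPM in cKO, against 32.1, 27.0 and 29.5 CPM in control, and in caudal cortex at 49.5, 97.1 and 66.9 CPM in cKO, against 53.8, 59.5 and 54.7 CPM in control. The cKO values lay on both sides of the control values in both regions. The cKO mean was 137% of control in rostral and 127% in caudal cortex, with log2 differences of 0.46 (SE 0.35) and 0.35 (SE 0.23). The rostral difference was 0.77 without T6 and 0.00 without T3. The caudal difference ran from 0.05 to 0.56 over the alternative fits, and T6, at 97.1 CPM, was the highest caudal library. Averaged over both pieces of an animal the spread was small, at 55.9, 59.3 and 52.1 CPM in cKO animals and 43.0, 43.2 and 42.1 CPM in control animals. On counts summed per animal the log2 difference was 0.36 (SE 0.06, adjusted p = 0.09782, edgeR), and DESeq2 and limma voom with quality weights called it.

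Across the 12 libraries Fgfr1 ran with the sums of hippocampal and choroid plexus markers at r = 0.917 and 0.878 on the log2 scale, given with no test. Within groups they went together in part. In cKO caudal cortex Fgfr1 and the hippocampal sum had the same order, with T3 lowest and T6 highest. In control rostral cortex T8 was lowest on both. Control caudal T8 had the highest Fgfr1 (59.5 CPM) and the highest hippocampal sum of its group, but the lowest choroid plexus sum. In cKO rostral cortex T80 had more Fgfr1 than T6 (37.4 against 21.5 CPM) and a lower hippocampal sum. The 6 hippocampal markers summed to 541.7, 280.8 and 262.7 CPM in cKO rostral cortex, against 242.8, 228.6 and 254.2 CPM in control, and to 427.9, 850.6 and 567.1 CPM in cKO caudal cortex, against 357.7, 435.5 and 385.8 CPM in control. The 6 choroid plexus markers summed to 391.1, 1.164 and 11.11 CPM in cKO rostral cortex, against 3.105 to 4.904 CPM in control, and to 156.1 to 544.1 CPM in cKO caudal cortex, against 8.752 to 213.7 CPM in control. Of each list 0 of the tested markers were called between genotypes by edgeR, with 2 and 5 hippocampal and 1 and 1 choroid plexus markers at an unadjusted p under 0.05 in rostral and caudal cortex. Per 1000 CPM of hippocampal markers, Fgfr1 stood at 115.1, 76.58 and 142.2 CPM in cKO rostral cortex, against 132.4, 117.9 and 116.0 CPM in control, and at 115.6, 114.2 and 117.9 CPM in cKO caudal cortex, against 150.3, 136.5 and 141.9 CPM in control. Set against these markers, Fgfr1 overlapped between genotypes in rostral cortex and lay wholly below control in caudal cKO cortex. The part of hippocampal and choroid plexus tissue in the Fgfr1 values was not tested.

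Fgfr2 (chromosome 7, 129764181 to 132725079, minus strand, ENSMUSG00000030849.19) stood at 32.7, 13.7 and 29.6 CPM in cKO rostral cortex, against 24.4, 23.5 and 25.7 CPM in control rostral cortex. In caudal cortex it stood at 24.5, 36.8 and 28.3 CPM in cKO, against 32.1, 28.6 and 29.2 CPM in control. The genotypes overlapped in both regions. The log2 difference was 0.06 (SE 0.30) in rostral cortex and 0.00 (SE 0.14) in caudal cortex, but 0.36 in rostral cortex without T6. Exons of Fgfr2 share 314 bases, 3.0% of its exon bases, with Ctbp2 on the same strand. Ctbp2 had 18900 counts in all libraries together against 22033 for Fgfr2, and how reads in the shared bases were assigned is not known.

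Fgfrl1, which encodes the kinase-lacking receptor (chromosome 5, 108840248 to 108854790, plus strand, ENSMUSG00000008090.15), stood at 11.8, 6.11 and 10.1 CPM in cKO rostral cortex, against 12.3, 14.0 and 13.1 CPM in control rostral cortex. In caudal cortex it stood at 8.71, 12.9 and 11.4 CPM in cKO, against 13.4, 13.03 and 10.98 CPM in control. The genotypes did not overlap in rostral cortex and overlapped in caudal cortex. The rostral gap was narrow, from 11.8 CPM in cKO T3 to 12.3 CPM in control T4, and T6 was the lowest rostral library. The log2 difference was -0.48 (SE 0.24) in rostral and -0.18 (SE 0.15) in caudal cortex. Over the alternative fits it ran from -0.69 to -0.25 in rostral and from -0.31 to -0.035 in caudal cortex.

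Among the ligands, Fgf1 was lower in cKO cortex. This gene (chromosome 18, 38971726 to 39062525, minus strand, ENSMUSG00000036585.17) encodes acidic FGF, a ligand of all FGF receptors that lacks a classical signal peptide. In rostral cortex it stood at 10.2, 2.79 and 7.90 CPM in cKO, against 18.9, 18.2 and 21.2 CPM in control, and in caudal cortex at 6.83, 9.75 and 9.45 CPM in cKO, against 17.2, 14.96 and 16.6 CPM in control. The genotypes did not overlap, and T6 was the lowest rostral library here too. The log2 difference was -1.47 (SE 0.43) in rostral cortex, where it was -1.09 without T6, and -0.90 (SE 0.14) in caudal cortex.

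The other ligand genes showed no such gap. Fgf2, which encodes basic FGF (chromosome 3, 37402495 to 37464257, plus strand, ENSMUSG00000037225.14), stood at 6.33, 3.05 and 5.31 CPM in cKO rostral cortex, against 4.78, 4.65 and 6.63 CPM in control rostral cortex. In caudal cortex it stood at 4.66, 9.10 and 6.28 CPM in cKO, against 6.14, 5.18 and 7.06 CPM in control. The genotypes overlapped in both regions, and T6 held both the lowest rostral and the highest caudal value. Exons of Fgf2 share 640 bases with Nudt6 on the opposite strand, so its values are uncertain without a known strand setting.

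Fgf9 (chromosome 14, 58308004 to 58350177, plus strand, ENSMUSG00000021974.16), a ligand made by neurons, was the steadiest of the 9 genes, with a highest value 1.38 times its lowest over the 12 libraries. It averaged 7.78 ± 0.44 CPM in cKO and 7.30 ± 0.53 CPM in control rostral cortex, and 8.36 ± 1.17 CPM in cKO and 8.83 ± 0.65 CPM in control caudal cortex (SD, n = 3 each). Fgf18 (chromosome 11, 33067430 to 33097400, minus strand, ENSMUSG00000057967.13), a ligand of the same subfamily as FGF8 and FGF17, had the lowest median of the 9, at 2.66 CPM. It stood at 2.59, 4.63 and 2.02 CPM in cKO rostral cortex, against 2.35, 3.32 and 3.03 CPM in control rostral cortex, and between 2.37 and 2.96 CPM in all caudal libraries. T6 was the highest rostral library for Fgf18, where it was the lowest for 6 others.

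**Figure D1:**
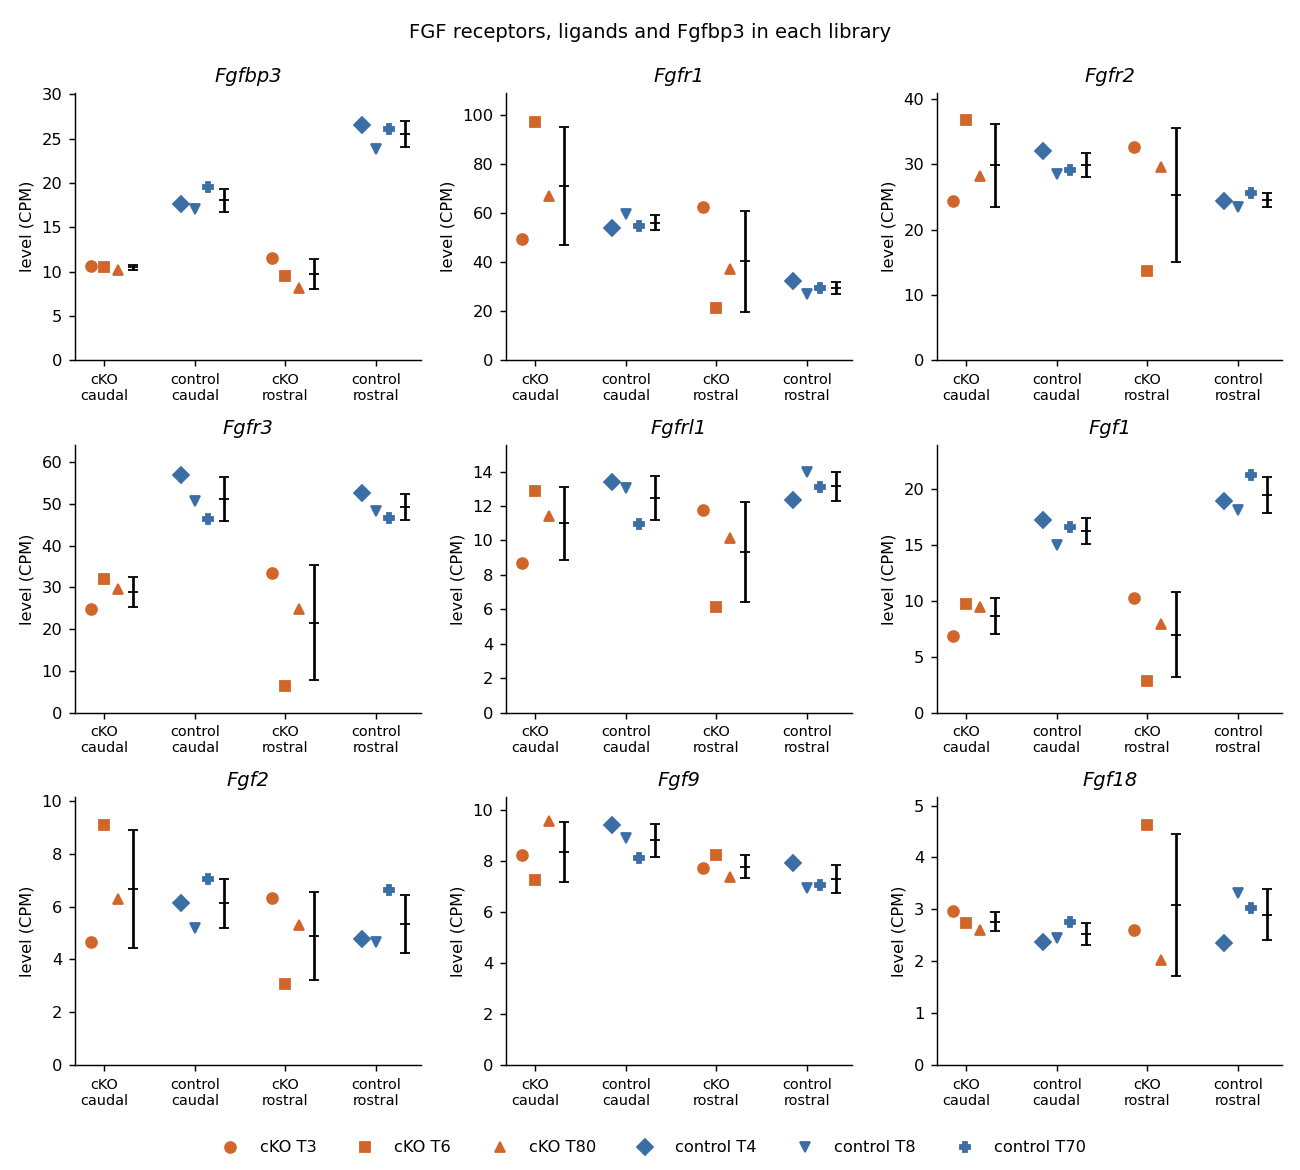
CPM of Fgfbp3, the 4 receptor genes and the 4 ligand genes in each of the 12 libraries, by group, with each point a library, shaped by animal, and bars at the group mean. In Fgfbp3, Fgfr3 and Fgf1 every cKO library lies below every control library, whereas Fgfr1, Fgfr2 and Fgf2 overlap and the cKO rostral library of T6 (Fgfr3 at 6.38 CPM) is set apart.

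Per kilobase of exon, which allows levels of different genes to be compared, the order of the genes differed between groups. In cKO rostral cortex Fgfbp3 averaged 5.48 ± 0.96, Fgfr1 4.09 ± 2.09, Fgfrl1 3.36 ± 1.049 and Fgfr3 3.005 ± 1.93 CPM per kilobase, and neighbours in this order did not differ beyond their spread (SD, n = 3). In control rostral cortex Fgfbp3 led with 14.4 ± 0.8, followed by Fgfr3 with 6.88 ± 0.44, Fgfrl1 with 4.72 ± 0.30, Fgf1 with 3.56 ± 0.29 and Fgfr1 with 2.99 ± 0.26 CPM per kilobase. In cKO caudal cortex Fgfr1 at 7.204 ± 2.44 and Fgfbp3 at 5.91 ± 0.13 CPM per kilobase led and did not differ beyond their spread. In control caudal cortex Fgfbp3 at 10.2 ± 0.7 led, before Fgfr3 at 7.17 ± 0.74 and Fgfr1 at 5.67 ± 0.31 CPM per kilobase. Fgf2 was last in all 4 groups, between 0.722 and 0.985 CPM per kilobase.

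Counted over the 9 genes, 4 had cKO values wholly below control in rostral cortex (Fgfbp3, Fgfr3, Fgfrl1 and Fgf1) and 3 in caudal cortex (Fgfbp3, Fgfr3 and Fgf1), where 10.8% and 11.7% of all genes tested lay wholly below. None lay wholly above. By edgeR's quasi-likelihood test with Benjamini-Hochberg adjustment, 0 of the 9 were called in rostral cortex, where 0% of all genes were, and 1 (Fgfbp3) in caudal cortex, where 0.0821% of all genes were. On counts summed per animal 2 were called (Fgfbp3 and Fgf1), with 0.179% of all genes. In rostral cortex 2 of the 9 had an unadjusted p under 0.05, as had 9.49% of all genes. DESeq2 and limma voom with quality weights each called 2 there (Fgfbp3 and Fgf1), with 0.947% and 4.73% of all genes. Without animal T6 edgeR called 4 (Fgfbp3, Fgf1 and Fgfr3 lower, Fgfr2 higher), with 5.01% of all genes. Fgfbp3 alone was called there by edgeR with no filter (45 of 39202 genes) and by the fit over all 12 libraries (101 of 21599). In caudal cortex Fgfbp3, Fgfr3 and Fgf1 were called by DESeq2 (1.2% of all genes), by limma voom with quality weights (1.8%), and by edgeR with no filter (0.839%), without T3 (0.469%) and without T6 (0.768%). The fit over all 12 libraries called 0 of the 9 there, and edgeR lost Fgfbp3 without T4, T8, T70 or T80 (adjusted p from 0.1781 to 0.2778). On summed counts Fgfbp3 was lost without T4, T8 or T70, and Fgf1 without any animal but T6, with duplicateCorrelation and with a filter of 1 CPM in 3 libraries. There DESeq2 (1.75% of all genes), limma voom with quality weights (3.21%) and edgeR without T6 (2.92%) each called 4, namely Fgfbp3, Fgfr3 and Fgf1 lower and Fgfr1 higher. Since the genes were chosen with these contrasts known, the counts describe them and do not serve as evidence.

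**Figure D2:**
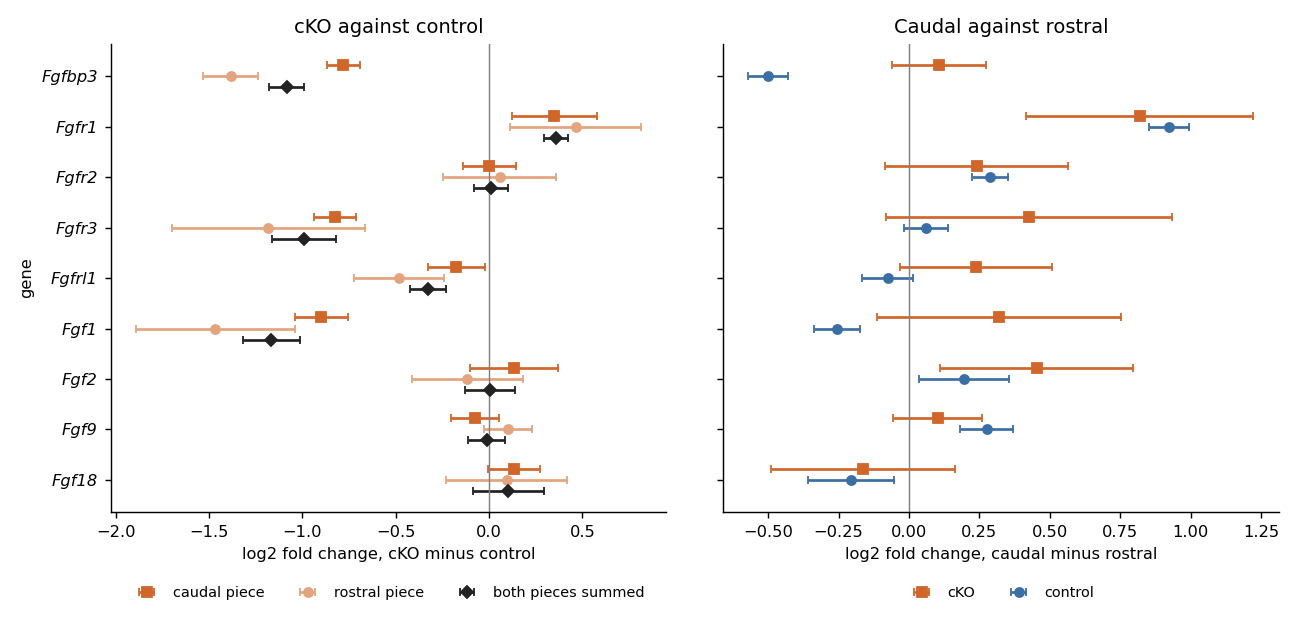
Log2 differences with SE bars for each of the 9 genes, cKO minus control in rostral cortex, in caudal cortex and on counts summed per animal. Fgfbp3, Fgfr3 and Fgf1 lie below 0 in all 3 fits (-1.38, -1.18 and -1.47 in rostral cortex), Fgfr1 lies above 0 (0.36 on summed counts), and Fgfr2, Fgf2, Fgf9 and Fgf18 lie within 1 SE of 0.

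The comparison of the caudal with the rostral piece asks how the genes are laid out along the cortex. In controls it does not use the cKO libraries, but it shares the control libraries with the genotype contrasts. Fgfr1 rose 1.90-fold in caudal control cortex, with a log2 difference of 0.92 (SE 0.07) and an adjusted p of 3.574e-05 in edgeR, and was higher in 3 of 3 animals. Fgfr2 rose by a log2 difference of 0.29 (SE 0.06, adjusted p = 0.01521, edgeR), also in 3 of 3 animals. Fgfbp3 fell by 0.50 in log2 units in caudal control cortex (SE 0.07, adjusted p = 0.001353 in edgeR), and was lower in 3 of 3 animals. These 3 of the 9 genes were called, where 12.2% of all genes were.

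The other genes did not pass in control cortex. Fgf1 had a log2 difference of -0.26 (SE 0.08, adjusted p = 0.06649, edgeR) and its caudal values lay wholly below the rostral ones. With the animal as a block it passed (adjusted p = 0.0295), and so it did in DESeq2 (adjusted p = 0.04832). Fgf9 had a difference of 0.28 (SE 0.09, adjusted p = 0.08681, edgeR), with caudal values wholly above rostral. Fgfr3, at 0.06 (SE 0.08), Fgfrl1, at -0.08 (SE 0.09), Fgf2, at 0.19 (SE 0.16), and Fgf18, at -0.20 (SE 0.15), overlapped between the regions. In all, 5 of the 9 genes had control regions that did not overlap, against 31.4% of all genes tested. The call of Fgfr2 was lost without T4 (adjusted p = 0.1119) or T8 (0.1123), and with 1 fit over all 12 libraries no gene of the 9 was called (adjusted p = 0.2717 for Fgfr1, 0.09609 for Fgfbp3 and 0.804 for Fgfr2).

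Markers of other tissue moved with region in the same control pieces. Of 6 hippocampal markers 5 rose in caudal control cortex, and their summed level ran from 357.7 to 435.5 CPM in caudal and from 228.6 to 254.2 CPM in rostral pieces. Of 6 choroid plexus markers 3 rose, with summed levels of 8.752 to 213.7 CPM in caudal and 3.105 to 4.904 CPM in rostral pieces. Of 6 oligodendrocyte precursor markers 3 fell, with summed levels of 398.9 to 466.6 CPM in caudal and 498.1 to 544.6 CPM in rostral pieces. Of 6 tested oligodendrocyte markers 4 fell, with a median sum over all 7 of 176.4 CPM in caudal and 215.3 CPM in rostral pieces and no overlap. Of 10 astrocyte markers 2 rose and 2 fell. Their part in the region differences of Fgfr1, Fgfr2 and Fgfbp3 was not tested.

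**Figure D3:**
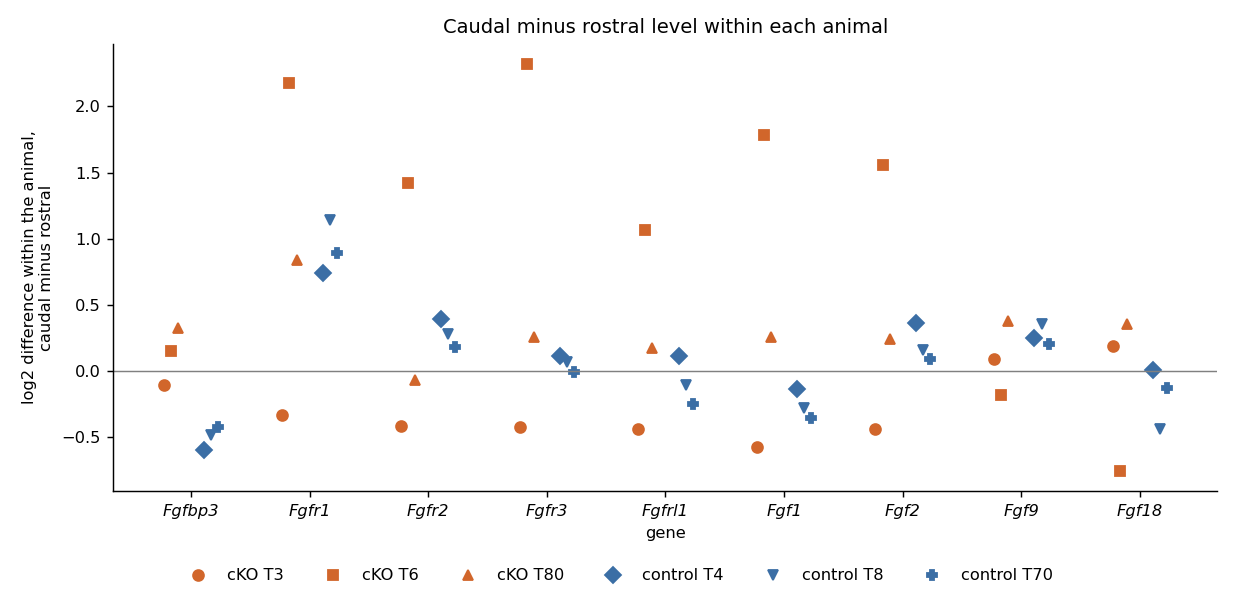
Log2 difference of the caudal minus the rostral piece of each animal for the 9 genes, cKO animals left of control animals. The 3 control animals lie together (Fgfr1 at 0.74, 1.14 and 0.89 in T4, T8 and T70), while T3 and T6 lie on opposite sides of 0 for each of the 9 genes, with Fgfr1 at -0.33 in T3 and 2.17 in T6.

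In cKO cortex no gene of the 9 was called between the regions by edgeR (0% of all genes), and 0 of the 9 by DESeq2 or limma voom with quality weights. At an unadjusted p under 0.05 there were 0 of the 9, against 1.66% of all genes. No gene of the 9 had regions that did not overlap, against 5.67% of all genes. Fgfr1 had a log2 difference of 0.82 (SE 0.40, adjusted p = 0.9999, edgeR), which was 1.49 without T3 and 0.22 without T6. The pieces of T6 differed most, with Fgfr3 higher by 2.32, Fgf1 by 1.79, Fgf2 by 1.56 and Fgfr2 by 1.42 on the log2 scale in the caudal piece. In T3 the same genes were lower in the caudal piece, at -0.42, -0.58, -0.44 and -0.42, and in T80 they lay between -0.06 and 0.26. Without T6 the region difference of Fgfr3 was -0.09 and that of Fgf1 -0.15, so their positive values in cKO rested on that animal.

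The interaction asks whether the region difference differs between genotypes, which is the same as asking whether the genotype difference differs between regions. None of the 9 genes passed (0% of all genes in edgeR), and 1, Fgfbp3, had an unadjusted p under 0.05, against 3.55% of all genes. For Fgfbp3 the interaction was 0.61 in log2 units (SE 0.17), with an adjusted p of 0.9997 in edgeR. Within animals, its caudal minus rostral difference was -0.11, 0.15 and 0.33 in cKO (T3, T6, T80), against -0.60, -0.48 and -0.42 in control (T4, T8, T70). All 3 cKO animals thus lay above all 3 controls, and how many of all genes do so was not counted. Since the gene was chosen with the genotype contrasts known, these values describe it. The interaction of Fgfbp3 ran from 0.51 to 0.75 over the alternatives, and its adjusted p from 0.1345 to 1.0, so it did not pass in any of them. By DESeq2 and by limma voom with quality weights, 0 of the 9 passed as well. For Fgfr3 the interaction was 0.36 (SE 0.57) and for Fgf1 0.58 (SE 0.47).

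Further genes of the pathway were read from 6 lists with 99 genes, of which 97 were in the table. No list gene was called between genotypes by edgeR, where 0% (rostral), 0.0821% (caudal) and 0.179% (summed counts) of all genes were. In rostral cortex 0 of 89 tested genes passed, with 13 at an unadjusted p under 0.05, against 9.49% of all genes. In caudal cortex 0 of 91 passed, with 17 unadjusted, against 3004 of 20705 over all genes. On summed counts 0 of 93 passed, with 22 unadjusted, against 3528 of 22924. In these 3 comparisons DESeq2 called 2, 3 and 5 list genes, with 0.947%, 1.2% and 1.75% of all genes. Limma voom with quality weights called 4, 2 and 5, with 4.73%, 1.8% and 3.21%. Without T6 edgeR called 5 in rostral cortex (5.01% of all genes) and 4 on summed counts (2.92%). It called 1 in caudal cortex without T3 (0.469%). With no filter it called 2 in caudal cortex (0.839%) and 2 on summed counts (320 of 42419 genes). Of 15 tested feedback inhibitors and targets, which MAP kinase signalling induces, 8 lay above 0 in rostral cKO cortex, 14 in caudal cKO cortex and 9 on summed counts. Their median log2 differences were 0.03, 0.16 and 0.16, against 0.04, 0.00 and 0.02 over all genes. Among them Dusp6, a phosphatase of ERK, had 0.34 (SE 0.08, adjusted p = 0.1588, edgeR) in caudal cortex. In rostral cortex Dusp6 averaged 47.3 CPM in cKO and 46.4 CPM in control. Etv4 went the other way, at -0.54 (SE 0.13, adjusted p = 0.1805, edgeR) on summed counts. Dusp4, a related phosphatase, had 1.27 (SE 0.26, adjusted p = 0.312, edgeR) in rostral cortex and 0.74 (SE 0.11, adjusted p = 0.05775, edgeR) on summed counts. Of 32 heparan sulfate core proteins and enzymes, 18 lay below 0 in rostral cKO cortex, 22 in caudal cKO cortex and 21 on summed counts. Their medians were -0.06, -0.08 and -0.07, with 6, 4 and 7 genes at an unadjusted p under 0.05 in edgeR.

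Between the control regions 24 of 88 tested list genes were called, 11 higher and 13 lower in caudal cortex, where 12.2% of all genes were called. Of the feedback genes 3 of 15 changed: Dusp4 rose by a log2 difference of 1.30 (SE 0.07), Dusp5 rose by 0.88 (SE 0.14) and Etv5, an ETS factor, fell by 0.29 (SE 0.08). Of the heparan sulfate genes 11 of 32 changed, 4 higher and 7 lower. Among the lower were Hs3st2, a sulfotransferase, at -0.67, Extl1, a glycosyltransferase, at -0.73, and Sulf2, which removes sulfate from heparan sulfate, at -0.54, and the glypican gene Gpc2 rose by 0.43. Of 8 tested co-receptors and binding proteins 4 changed: Flrt3 rose by 0.39, Fgfbp1 by 0.96 and the klotho gene Kl by 1.75, while Flrt2 fell by 0.53. Kl is also a choroid plexus marker, and the choroid plexus levels given above moved with it. Of the other ligands Fgf5 rose by 0.77 and Fgf22, a ligand at synapses, fell by 1.13, and of the intracellular FGF homologous factors Fgf13 rose by 0.36 and Fgf14 fell by 0.25. Of 23 adaptors and kinases only Nras, at -0.18, and Shc3, at -0.58, were called. The number of list genes called depended on the setting. In 1 fit over all 12 libraries 0 of 91 were called (78 of 21599 over all genes), and without T8 12 of 89 (1079 of 20571). DESeq2 called 26 of 95 (2788 of 38823), and limma voom with quality weights 28 of 88 (3212 of 20461).

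**Figure D4:**
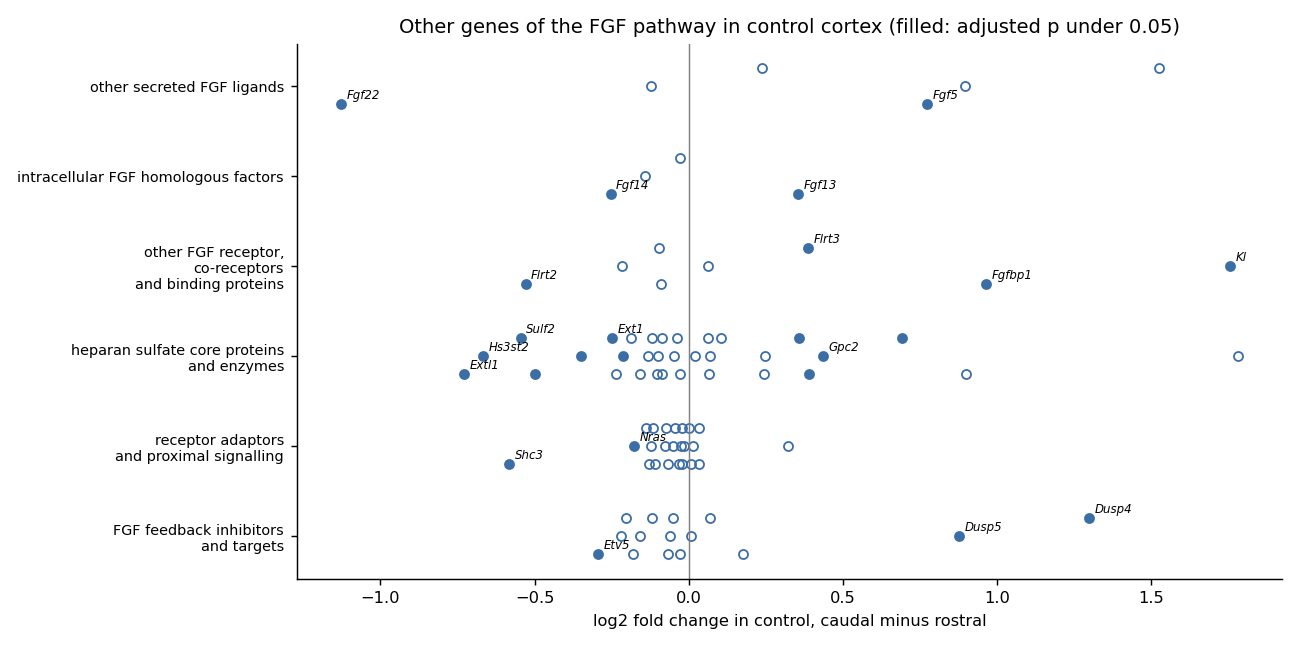
Log2 differences of caudal minus rostral control cortex for the tested genes of the 6 pathway lists, each point a gene, with genes called at an adjusted p under 0.05 marked. The called genes lie on both sides of 0, from Kl at 1.75 and Dusp4 at 1.30 to Fgf22 at -1.13.

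Within each region, astrocyte markers had lower summed levels in part of the cKO libraries, and oligodendrocyte precursor markers in all of them. The summed level of 10 astrocyte markers ran from 968.6 to 2491 CPM in cKO and from 2224 to 2480 CPM in control rostral cortex, and from 2182 to 2894 CPM in cKO and from 2479 to 2812 CPM in control caudal cortex. The lowest value was that of the rostral T6 library. The 6 oligodendrocyte precursor markers summed to 286.2 to 424.3 CPM in cKO and to 498.1 to 544.6 CPM in control rostral cortex, and to 320.1 to 389.1 CPM in cKO and to 398.9 to 466.6 CPM in control caudal cortex, with no overlap between genotypes. Of these markers, 0 of 10 and 0 of 6 were called in rostral cortex and 0 of 10 and 1 of 6 in caudal cortex, all with edgeR, with 4 and 4 at an unadjusted p under 0.05 in rostral and 3 and 4 in caudal cortex. On summed counts edgeR called 2 of 10 and 2 of 6, all lower in cKO, with 0.179% of all genes. None of the 16 was at 0 in any library.

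Set against the summed CPM of astrocyte markers of the same library, Fgfr3 and Fgf1 were lower in cKO. Per 1000 CPM of astrocyte markers, Fgfr3 ran from 6.59 to 13.4 CPM in cKO and from 18.8 to 22.7 CPM in control rostral cortex, and from 11.1 to 13.1 CPM in cKO and from 18.4 to 20.5 CPM in control caudal cortex. Fgf1 ran from 2.89 to 4.26 in cKO and from 8.15 to 8.56 in control rostral cortex, and from 3.13 to 4.19 in cKO and from 6.03 to 6.58 in control caudal cortex. Fgfbp3 per 1000 CPM of oligodendrocyte precursor markers ran from 22.9 to 33.1 CPM in cKO and from 47.8 to 52.8 CPM in control rostral cortex, and from 27.1 to 33.4 CPM in cKO and from 37.6 to 46.4 CPM in control caudal cortex. Fgfbp3, Fgfr3 and Fgf1 had genotypes that did not overlap in either region against either of these marker sums. Of the astrocyte markers, 9 lay below and 1 above 0 in rostral cKO cortex, and 8 and 2 in caudal cKO cortex. Aldh1l1, a marker close to Fgf1 (r = 0.991), averaged 44.9% of control in rostral and 60.1% in caudal cKO cortex. Slc1a2, the most abundant marker of the sum, averaged 78.7% and 101%. Fgf1 averaged 35.8% and 53.3%, and Fgfr3 43.7% and 56.2%. The part of astrocyte number in these levels was not tested.

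Set against oligodendrocyte markers the gap was smaller. These 7 markers, of which 1 was at 0 in a library, had a median sum of 86.2 CPM in cKO and 215.3 CPM in control rostral cortex, and of 114.4 CPM in cKO and 176.4 CPM in control caudal cortex, with no overlap between genotypes. Across the 12 libraries Fgfbp3 ran with this sum at r = 0.96 on the log2 scale, against 0.871 for the precursor markers, given with no test. Per 1000 CPM of oligodendrocyte markers, Fgfbp3 ran from 81.96 to 113.1 CPM in cKO and from 116.6 to 123.4 CPM in control rostral cortex, and from 89.25 to 105.3 CPM in cKO and from 96.72 to 115.7 CPM in control caudal cortex. The genotypes thus overlapped in caudal cortex. On the same measure Fgfr3 and Fgf1 overlapped between genotypes in both regions.

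**Figure D5:**
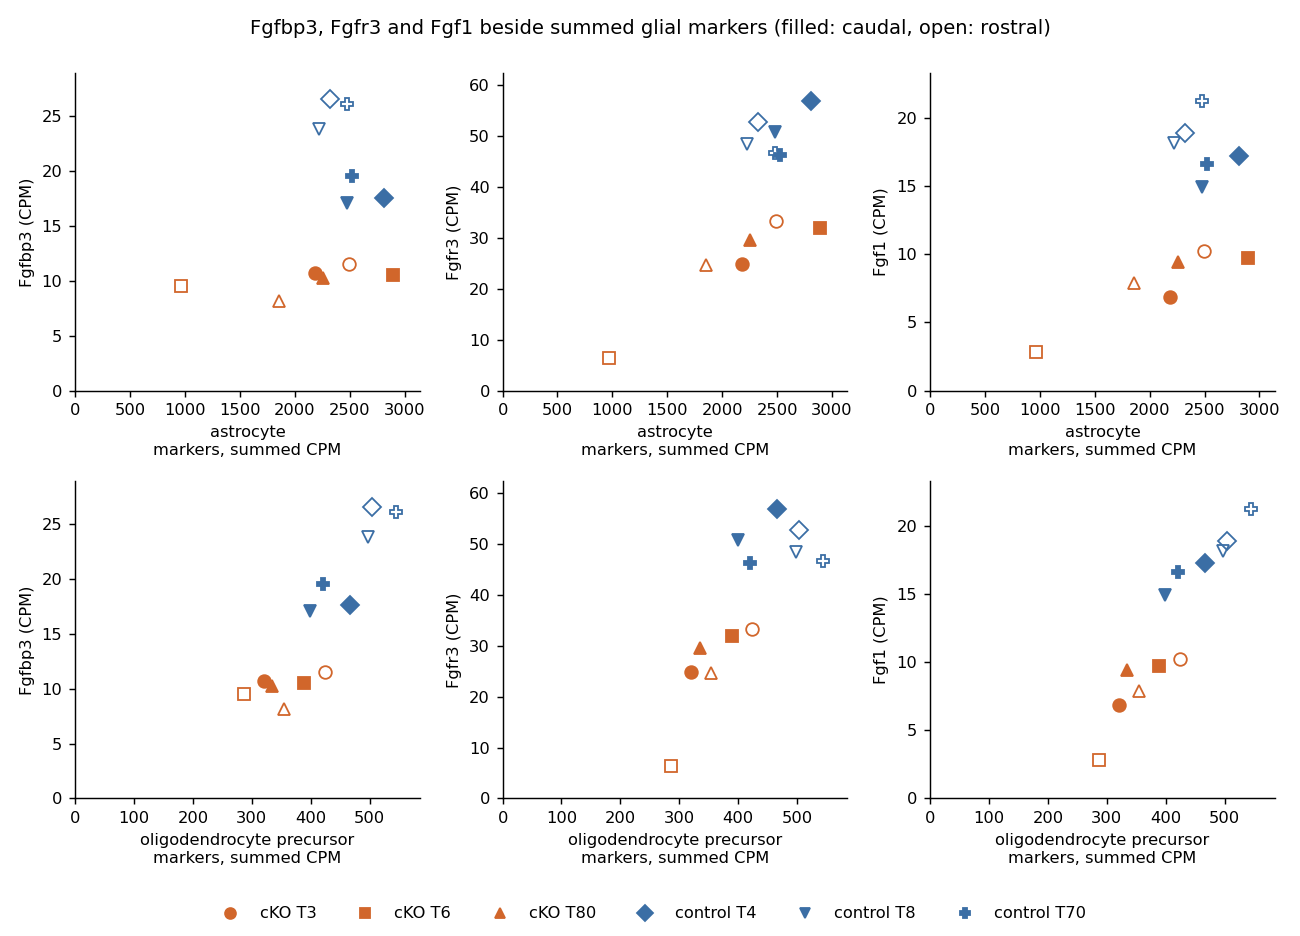
CPM of Fgfbp3, Fgfr3 and Fgf1 in each library against the summed CPM of 10 astrocyte markers (top) and 6 oligodendrocyte precursor markers (bottom), with filled points for caudal and open points for rostral pieces. Among libraries with an astrocyte sum of 2182 CPM or more, the cKO libraries lie below the control libraries for all 3 genes, and the rostral T6 library lies at the lowest sum, 968.6 CPM.

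Across the 12 libraries, which share genotype and region differences, pairs of the 9 genes ran together to different degrees, given here as Pearson correlations of log2 CPM with no test. Fgfr3 ran with Fgf1 (r = 0.964) and Fgfrl1 (r = 0.927), and Fgfbp3 with Fgf1 (r = 0.829), while Fgfr2 ran with Fgf2 (r = 0.887) and Fgfr1 (r = 0.811). Among 11416 genes with a mean of at least 5 CPM, the closest to Fgfr3 were Bcan (r = 0.993), Fabp7 (0.99) and Acsbg1 (0.989). The closest to Fgf1 were Scd1 (r = 0.993), S100a16 (0.993) and Aldh1l1 (0.991). The closest to Fgfbp3 were Pllp (r = 0.969), Olig1 (0.963) and Sox8 (0.957). The closest to Fgfr1 were Gdf10 (r = 0.976), Islr2 (0.97) and Nrp1 (0.967), to Fgfr2 Pttg1ip (r = 0.98), Ccdc8 (0.974) and Denn2b (0.97), and to Fgfrl1 Pcx (r = 0.975), Acsf2 (0.965) and Etv4 (0.96). The ligands Fgf2 (Septin10, r = 0.949), Fgf18 (Jazf1, r = 0.933) and Fgf9 (Kcnd2, r = 0.846) had less close matches.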

How the data were processed

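The deposited tables of the 12 libraries hold estimated counts per gene, made by the authors with STAR 2.7.8a and featureCounts 2.0.3 on GRCm39, per the submitters' processing notes. Fractional values made up 9.69% to 14.3% of each library. All were rounded to whole numbers, where plain counts had been planned for. The sources used here give no annotation release, strand setting or treatment of shared reads, so overlapping and antisense genes cannot be told apart.

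Groups came from the labels. Each of 6 comparisons was fitted over all genes of its own libraries with edgeR 4.0.16 in R 4.3.3 (filterByExpr, TMM, robust quasi-likelihood F test, Benjamini-Hochberg adjustment, threshold 0.05), and the SE is the absolute log2 difference over the root of its F. CPM were scaled by TMM over all libraries. Alternatives were DESeq2 1.42.0, limma 3.58.1 (voom with quality weights, duplicateCorrelation), other scalings and filters, 1 fit over all libraries, and each animal left out. Leaving out single cKO libraries was added after seeing the data. The steps were tested on simulated data.

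A shared T number was read as a shared animal, since both pieces of a brain carry it. Deviations of the paired libraries from their group means correlated across 21599 genes at r = 0.2695 (T4), 0.2471 (T8), 0.3329 (T70), 0.03065 (T3), -0.002775 (T6) and 0.4612 (T80). The 9 genes, the pathway lists and the markers were chosen with earlier results of these data known. Genes named from the pathway lists are those past 0.05 in a comparison, at most the 5 with the smallest p per list, and otherwise up to 2 per list with the smallest p. Promoter windows are from RefSeq on GRCm38.p6, whose coordinates are not those of the counts.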

Additional observations from a re-analysis of the deposited data

How the results depend on the processing

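Counts of called genes depended on the tool and on single animals. The rostral genotype comparison called 0 genes, 371 by DESeq2, 974 by limma voom with quality weights, 45 with no filter, 101 in 1 fit over all 12 libraries, and 0 to 1058 with an animal left out (1058 without T6). The caudal one called 17, and 468, 373, 326 and 1 under these settings, and 0 to 162 with an animal left out. On summed counts 41 were called, with 740 by DESeq2, 736 by limma voom with quality weights, 80 with duplicateCorrelation, 320 with no filter, and 1 to 685 with an animal left out. Region in control called 2492 genes, 78 in 1 fit over all libraries and 1079 to 1690 with an animal left out. Region in cKO called 0, with 2 by DESeq2. The interaction called 0, with 14 by DESeq2, 149 by limma voom with quality weights, 2 with no filter, 0 to 475 with an animal left out, and 35, 1 and 0 without the cKO rostral library of T6, that of T3 and the cKO caudal library of T3. The causes were not tested.

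The signs of Fgfbp3, Fgfr3 and Fgf1 between genotypes and of Fgfbp3, Fgfr1 and Fgfr2 between control regions held under every alternative run. Others turned. Over all alternatives, the genotype value of Fgfr2 ran from -0.1752 to 0.355 in rostral cortex, from -0.1858 to 0.1252 in caudal cortex and from -0.04154 to 0.08907 on summed counts, that of Fgf2 from -0.3512 to 0.2048, -0.1606 to 0.3321 and -0.09179 to 0.1412, and that of Fgf18 from -0.3174 to 0.3161 in rostral cortex and -0.09673 to 0.2402 on summed counts. That of Fgf9 ran from -0.1857 to 0.04523 in caudal cortex and -0.06135 to 0.04973 on summed counts. With an animal left out, Fgfrl1 between control regions ran from -0.178 to 0.004613. Between cKO regions Fgfr2 ran from -0.2368 to 0.6028, Fgfr3 from -0.09123 to 1.001, Fgfrl1 from -0.1187 to 0.5924, Fgf1 from -0.1487 to 0.8591, Fgf2 from -0.08313 to 0.8927, Fgf9 from -0.04494 to 0.2439 and Fgf18 from -0.3447 to 0.2662, and with quality weights Fgfr2 was at -0.08911 and Fgf18 at 0.1526. In the interaction Fgfr1 ran from -0.6991 to 0.5628, Fgfr2 from -0.5218 to 0.3115, Fgfr3 from -0.1493 to 0.9375, Fgfrl1 from -0.03999 to 0.6658, Fgf2 from -0.2742 to 0.6934 and Fgf18 from -0.1437 to 0.4779, and Fgf2 was at -0.1169 with quality weights.

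With the animal as a replicate block, 3144 genes were called between control regions, 0 between cKO regions and 0 in the interaction. Of the 9 genes, Fgf1 gained a call between control regions (-0.2554, adjusted p = 0.0295, edgeR), Fgfr2 turned to 0.01518 in the interaction, and no other call changed.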

Other observations

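Sums of the 6 radial glia and neural stem markers did not overlap between genotypes in either region. They ran from 374.3 to 751.3 CPM in cKO and from 796.2 to 877.9 CPM in control rostral cortex, and from 609.5 to 788.9 CPM in cKO and from 848.4 to 910.0 CPM in control caudal cortex. The markers did not fall as a set. In rostral cKO cortex 3 of the 6 lay above 0 and 3 below, and in caudal cKO cortex 4 lay above and 2 below. A large part of each sum is Fabp7, which averaged 528 CPM over the 12 libraries and was among the closest matches of Fgfr3 (r = 0.99). Per 1000 CPM of these markers, Fgfbp3, Fgfr3 and Fgf1 still had genotypes that did not overlap in either region, with Fgfr3 from 17.05 to 44.46 CPM in cKO and from 53.09 to 66.18 CPM in control rostral cortex.

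Sums of microglia, endothelial and meningeal fibroblast markers overlapped between genotypes in both regions, and those of interneuron markers in caudal cortex only. Microglia markers summed to 78.67 to 211.7 CPM in cKO and 105.3 to 140.1 CPM in control rostral cortex, and endothelial markers to 176.3 to 306.5 CPM in cKO and 249.6 to 275.8 CPM in control rostral cortex. Meningeal fibroblast markers ran from 19.6 to 435.3 CPM in cKO and from 110.6 to 256.4 CPM in control rostral cortex. Interneuron markers summed to 280.7 to 394.6 CPM in cKO and 194.8 to 261.9 CPM in control rostral cortex, and to 265.9 to 379.4 CPM in cKO and 267.3 to 351.9 CPM in control caudal cortex.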
